A study of Homo sapiens with 16 samples.

Results

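The ETO family of transcriptional corepressors and the corepressor proteins it recruits were examined as 9 genes, which were taken by gene name from the in vitro count tables. These are *RUNX1T1* (*ETO*), *CBFA2T2* and *CBFA2T3* of the family itself and *NCOR1*, *TBL1XR1*, *HDAC3*, *HDAC1*, *HDAC2* and *SIN3A* of the corepressor complexes. They are 9 of the 60357 gene entries in these tables, and all 9 were among the 15863 entries that reached a sum of 600 reads over the 12 in vitro libraries. Total RNA was sequenced from 2 human lines of acute myeloid leukaemia (AML) cells, Kasumi-1 and SKNO-1, that carry the translocation behind the *RUNX1/ETO* fusion gene. All cells received lipid nanoparticles (LNPs) at 2 µg/ml for 24 h and were harvested on day 3. The LNPs carried either siRE-mod, a chemically modified siRNA directed at the fusion site of *RUNX1/ETO*, or siMM-mod, its mismatch control. Each line has 3 libraries labelled siMM-mod, whose genotype is given as WT, and 3 labelled siRE-mod, whose genotype is given as RUNX1/ETO knockdown. SKNO-1 was grown with GM-CSF. In addition, 4 libraries of Kasumi-1 cells from mice, 2 for each siRNA, list all 9 members at 0 with 0.01997% to 0.0335% of their reads on genes, and give no level. The labels do not say whether replicates were separate cultures, so the p-values measure the spread between these libraries only.

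ETO proteins do not bind DNA in a sequence-specific way themselves. They are held at genes by DNA-binding factors and bring in NCoR (*NCOR1*), SIN3A and histone deacetylases, which remove acetyl groups from histones and lower transcription. In the RUNX1/ETO fusion protein nearly the whole of ETO is joined to the DNA-binding Runt domain of RUNX1, and genes that RUNX1 normally controls come under these corepressors. *CBFA2T2* and *CBFA2T3* are the paralogs of *RUNX1T1* and can form oligomers with it and with the fusion protein.

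The depth of the 12 libraries ranged from 60559466 to 147990959 counts on genes with a median of 89160101, so that the lowest count of any member was 967. Counting error is thus small against the wider differences between libraries. It is not small against the narrowest gaps below, such as that of *HDAC3* at 1.01-fold and that of *CBFA2T2* at 1.03-fold. The libraries did not follow their labels in *CD34*, the stem and progenitor cell surface marker, nor in *RUNX1T1*, the gene whose fused transcript is the target of siRE-mod. They were therefore also read by value. Ordered by *CD34* and divided at the widest gap on the log2 scale, 6 libraries had between 117 and 421 normalized CPM of *CD34* (CPM are counts scaled to a common library size, here after TMM normalization), and 6 had between 0.108 and 0.627. Each set was then divided at the widest gap of *RUNX1T1*. The CD34-expressing libraries with higher *RUNX1T1* are those labelled Kasumi-1 siMM-mod replicate 1, SKNO-1 siMM-mod replicate 1 and SKNO-1 siMM-mod replicate 2. The CD34-expressing libraries with lower *RUNX1T1* are those labelled Kasumi-1 siMM-mod replicate 2, SKNO-1 siMM-mod replicate 3 and SKNO-1 siRE-mod replicate 1. Among the CD34-silent libraries, those labelled Kasumi-1 siMM-mod replicate 3, Kasumi-1 siRE-mod replicate 2 and SKNO-1 siRE-mod replicate 2 had higher *RUNX1T1*. The remaining CD34-silent libraries, labelled Kasumi-1 siRE-mod replicate 1, Kasumi-1 siRE-mod replicate 3 and SKNO-1 siRE-mod replicate 3, had lower *RUNX1T1*. Values of these 4 sets of 3 are given below in this order of sets and libraries. The sets were made from measured values and are not groups of the study, so they are described without means or tests.

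**Figure D1:**
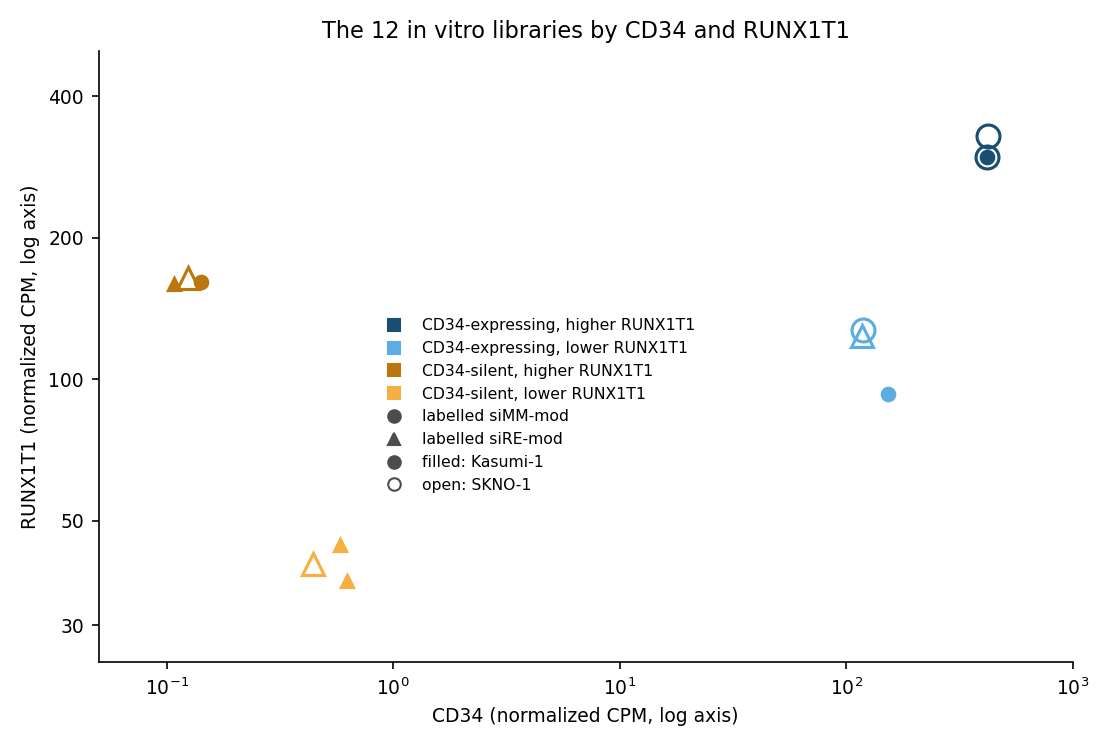
*RUNX1T1* against *CD34* in the 12 in vitro libraries, both in normalized CPM on log axes, with the siRNA label as the marker shape and the cell line as filled or open markers. The libraries form 4 sets of 3, each of which holds libraries labelled as both cell lines, with *CD34* at 117 or above on the right and at 0.627 or below on the left.

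The CD34-silent libraries also differed from the others in further cell surface and lineage genes. *IL5RA*, the receptor chain for interleukin 5 of eosinophils, was at 36.3 to 68.0 normalized CPM in the CD34-silent libraries and at most 0.179 in the CD34-expressing ones. The myeloid markers *KIT*, *CD33* and *MPO* were expressed in all 12 libraries, with *KIT* at 682 to 999 in the CD34-expressing and at 97.0 to 516 in the CD34-silent libraries. Of 6 cell type markers, 2 (*IL5RA* and *PTPRC*) were higher without overlap in the CD34-silent libraries, against 17.5% of all genes. Lower were 3 (*CD34*, which made the sets, *KIT* and *MPO*), against 15.6%, and *CD33* overlapped. Over the 12 libraries *MPO* ranged from 1783 to 22667 and *PTPRC* from 67.8 to 441. *EPCAM*, an epithelial adhesion gene, was at 77.6 to 104 normalized CPM in the CD34-expressing libraries and at most 0.0108 in the CD34-silent ones. Over the 10 markers of other cell types that were examined, the summed level was 81.6 to 110.0 in the CD34-expressing and 11.5 to 18.1 in the CD34-silent libraries. *EPCAM* carried this direction, since the sum of the other 9 was 3.07 to 9.11 in the CD34-expressing libraries and thus lower than in the CD34-silent ones. Most of that remainder was *PECAM1*, an adhesion gene of endothelial and blood cells, at 2.23 to 8.34 and at 11.4 to 17.7 normalized CPM, respectively. Of the 10 markers, 8 stayed below 1 CPM in every library, and *COL1A2* and *MS4A1* were listed at 0 throughout. The part of these differences in the results below was not tested. In bulk RNA, fewer cells that express a gene and less of its RNA per cell cannot be told apart.

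*RUNX1T1* (ENSG00000079102.16, chromosome 8 from 91954967 to 92103286 of GRCh38, minus strand) was the most variable member. Reads of the fusion and of an unfused *RUNX1T1* transcript are both counted here. The CD34-expressing libraries had 297, 329 and 298 normalized CPM in the set with higher values and 92.9, 127 and 124 in the set with lower values. The CD34-silent libraries had 161, 159 and 165 in the set with higher values and 44.4, 37.3 and 40.4 in the set with lower values. Since *RUNX1T1* made the sets, this separation is a description. The highest value of the lower set was below the lowest value of the higher set by a factor of 2.33 in the CD34-expressing and of 3.59 in the CD34-silent libraries. The higher CD34-silent libraries thus lay between both CD34-expressing sets, and the range over all 12 libraries was 8.83-fold. By label, *RUNX1T1* was 184 ± 104 normalized CPM (SD, n = 3) in siMM-mod and 80.3 ± 68.4 (SD, n = 3) in siRE-mod libraries of Kasumi-1, and 251 ± 109 (SD, n = 3) and 109.6 ± 63.3 (SD, n = 3) in those of SKNO-1. The labelled groups overlapped in both lines.

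*CBFA2T3* (*ETO2*, *MTG16*; ENSG00000129993.14, chromosome 16 from 88874858 to 88977204, minus strand) encodes a family member best known in early haematopoietic cells, where it sits in complexes with SCL/TAL1. It was higher where *RUNX1T1* was lower. In the CD34-expressing libraries it had 18.3, 16.6 and 14.0 normalized CPM with higher *RUNX1T1* and 43.4, 29.5 and 29.6 with lower *RUNX1T1*. The CD34-silent libraries had 23.6, 21.7 and 17.0 with higher *RUNX1T1* and 43.3, 48.3 and 37.8 with lower *RUNX1T1*. These sets did not overlap on either side of the *CD34* division, with gaps of 1.62-fold and 1.601-fold between the nearest libraries. The 3 libraries of a set differed from each other by 1.28-fold to 1.47-fold, which is less than the gaps. Among all 15863 genes, 18.1% were likewise higher without overlap in the CD34-expressing libraries with lower *RUNX1T1* and 21.7% in the CD34-silent ones, so that such a separation was common. *CBFA2T3* did not separate by *CD34*, with 14.0 to 43.4 in the CD34-expressing and 17.0 to 48.3 in the CD34-silent libraries. The exons of *CBFA2T3* share 8.39% of their bases with a gene on the opposite strand, and whether counting used the strand is not given in the sources used here.

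*CBFA2T2* (*MTGR1*; ENSG00000078699.21, chromosome 20 from 33490075 to 33650036, plus strand) is the paralog known from germ cell and embryonic stem cell pluripotency. It was the least variable member, at 20.2 to 24.9 normalized CPM over the 12 libraries. This is a range of 0.30 on the log2 scale, against a median range of 1.39 for all 15863 genes and 0.74 for the 9 members. *CBFA2T2* overlapped between the sets made by *CD34* and between those made by *RUNX1T1* on both sides. In SKNO-1 the labelled groups did not overlap, with values of 23.1, 20.2 and 23.3 under siMM-mod and of 24.2, 24.9 and 24.1 under siRE-mod (replicates 1 to 3). That gap was 1.03-fold, and 5.93% of all genes were higher without overlap in this comparison.

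Levels of different genes were compared as normalized CPM per kb of exonic length, since longer transcripts give more reads. This length covers all annotated exons of a gene and can exceed that of the expressed transcript, so orders between genes depend on it. Of the summed level of the 3 family genes, *RUNX1T1* made up 80.4% to 83.1% in the CD34-expressing libraries with higher *RUNX1T1* and 41.5% to 55.9% in those with lower *RUNX1T1*. Its share was 65.4% to 68.9% and 20.8% to 25.3% in the corresponding CD34-silent libraries. *CBFA2T3* held 8.84% to 11.2%, 29.4% to 43.9%, 16.1% to 21.7% and 53.3% to 61.2% in the same order of sets. It was therefore the family gene with the highest level per kb in all 3 CD34-silent libraries with lower *RUNX1T1*, at a ratio of *RUNX1T1* to *CBFA2T3* of 0.341 to 0.472, and in the CD34-expressing library labelled Kasumi-1 siMM-mod replicate 2, at 0.945. Not divided by length, *RUNX1T1* had 44.4, 37.3 and 40.4 normalized CPM in these CD34-silent libraries, against 43.3, 48.3 and 37.8 for *CBFA2T3*. In Kasumi-1 siMM-mod replicate 2 the values were 92.9 and 43.4. The rank of both genes thus depends on the exonic lengths, 13535 bases for *RUNX1T1* and 5972 for *CBFA2T3*. The ratio per kb was 0.945 to 1.90 in the CD34-expressing libraries with lower *RUNX1T1*, 3.01 to 4.27 in the CD34-silent and 7.17 to 9.40 in the CD34-expressing libraries with higher *RUNX1T1*. The summed level per kb of the family was 26.5 to 29.5, 16.5 to 16.8, 17.6 to 18.2 and 11.9 to 13.2 in the 4 sets. The sum was thus lower in the sets with lower *RUNX1T1* although *CBFA2T3* was higher there. Part of this follows from the rule, because *RUNX1T1* both makes the sets and enters the sum.

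**Figure D2:**
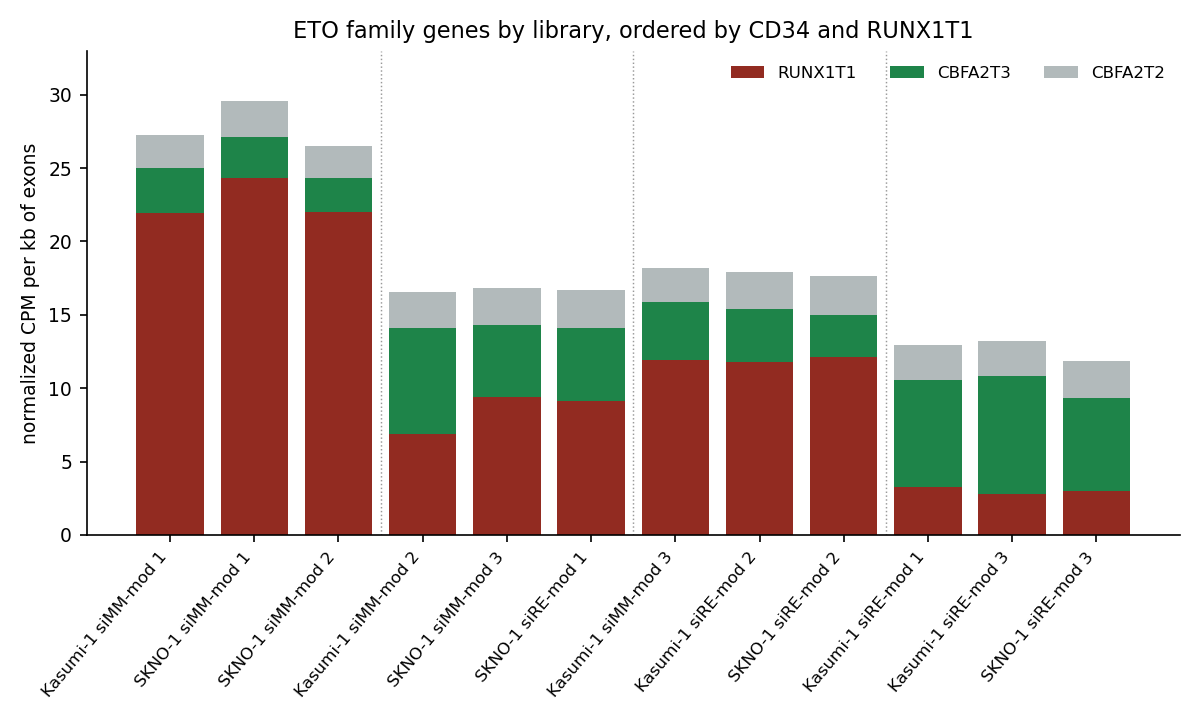
Level of the 3 ETO family genes in each library in normalized CPM per kb of exonic length, stacked, with dotted lines between the 4 sets. *RUNX1T1* makes up 80.4% to 83.1% of the bar in the first 3 libraries and 20.8% to 25.3% in the last 3, where *CBFA2T3* holds 53.3% to 61.2%.

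*NCOR1* (ENSG00000141027.21, chromosome 17 from 16029157 to 16218185, minus strand) encodes the nuclear receptor corepressor NCoR, the scaffold that carries HDAC3 and TBL1XR1 and to which ETO binds. It was the only member in which the 6 CD34-silent libraries did not overlap with the 6 CD34-expressing ones. In the CD34-expressing libraries it had 71.9, 82.7 and 76.1 normalized CPM with higher and 70.8, 86.8 and 83.0 with lower *RUNX1T1*. The CD34-silent libraries had 151, 171 and 175 with higher and 139.9, 139 and 155 with lower *RUNX1T1*. All CD34-silent libraries were thus above all others, with a gap of 1.605-fold between the nearest values, while the sets made by *RUNX1T1* overlapped on both sides. Libraries of the same set differed by at most 1.23-fold. Without overlap, 17.5% of all genes were higher and 15.6% lower in the CD34-silent libraries, and 1 of the 8 members other than *RUNX1T1* was higher and 0 lower. *IL5RA* and *PECAM1* were higher and *EPCAM* lower in the same CD34-silent libraries, as given above, and their part in this difference was not tested.

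The promoters of *CBFA2T3* and *NCOR1* are shown because these are the members that separated most clearly by *RUNX1T1* and by *CD34*. The sequences are from RefSeq on GRCh38.p14, 300 bases around the start site and 5′ to 3′ on the strand of the gene. RUNX1 and RUNX1/ETO recognise the motif TGTGGT or TGCGGT, which was searched on both strands and is in capitals where it occurs. Of the 35116 promoters in the table, 19.6% hold it. Among the 11 promoters of 8 members that were looked up, 1 does, which is the downstream promoter of *NCOR1* with TGTGGT at position −95 from its start site. The first sequence is the only promoter of *CBFA2T3* that was looked up, at chr16:88941301-88941600. It lies inside the span of the gene, whose 5′ end at 88977204 was not searched. The upstream promoter of *NCOR1* at chr17:16215485-16215784 and its downstream promoter at chr17:16194590-16194889 follow. All are on the minus strand.
CBFA2T3: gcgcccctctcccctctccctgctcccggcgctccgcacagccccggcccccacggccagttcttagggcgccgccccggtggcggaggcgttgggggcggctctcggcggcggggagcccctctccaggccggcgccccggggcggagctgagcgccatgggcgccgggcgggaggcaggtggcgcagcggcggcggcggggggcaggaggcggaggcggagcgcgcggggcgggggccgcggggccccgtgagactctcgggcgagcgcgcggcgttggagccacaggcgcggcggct
NCOR1 upstream: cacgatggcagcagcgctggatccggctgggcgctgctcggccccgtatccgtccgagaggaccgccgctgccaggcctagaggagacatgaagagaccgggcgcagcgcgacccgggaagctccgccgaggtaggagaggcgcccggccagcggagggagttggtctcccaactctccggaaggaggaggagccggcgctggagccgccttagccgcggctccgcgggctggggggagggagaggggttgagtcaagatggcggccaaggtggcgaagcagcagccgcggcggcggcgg
NCOR1 downstream: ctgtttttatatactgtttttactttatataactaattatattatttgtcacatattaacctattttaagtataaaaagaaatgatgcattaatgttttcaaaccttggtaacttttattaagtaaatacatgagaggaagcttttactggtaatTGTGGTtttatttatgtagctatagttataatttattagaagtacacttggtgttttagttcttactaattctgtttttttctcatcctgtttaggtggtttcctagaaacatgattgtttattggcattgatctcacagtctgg
A match of letters is a description and not a bound site, and the absence of a match in these windows says nothing of the factor elsewhere at the gene.

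*TBL1XR1* (ENSG00000177565.16, chromosome 3 from 177019340 to 177228000, minus strand) encodes a WD40 subunit of the NCoR complex that takes part in the exchange of corepressors for coactivators. It was lower where *RUNX1T1* was lower, on both sides of the *CD34* division. The CD34-expressing libraries had 539, 594 and 592 normalized CPM with higher and 437, 456 and 455 with lower *RUNX1T1*. The CD34-silent libraries had 578, 571 and 667 with higher and 439, 444 and 501 with lower *RUNX1T1*. The gaps between the nearest libraries were 1.18-fold and 1.14-fold, and libraries of the same set differed by up to 1.17-fold. The distance between the sets is therefore of the size of the spread inside them. Lower without overlap were 20.1% of all genes in the CD34-expressing and 21.6% in the CD34-silent libraries.

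The 3 class I histone deacetylases in the list separated by *RUNX1T1* in the CD34-expressing libraries. With TMM normalization they overlapped in the CD34-silent ones, *HDAC2* only narrowly, and *HDAC2* separated there under both other scalings. *HDAC3* (ENSG00000171720.10, chromosome 5 from 141620876 to 141636849, minus strand) is the deacetylase bound to NCoR. It had 78.0, 71.1 and 79.3 normalized CPM in the CD34-expressing libraries with higher *RUNX1T1* and 70.1, 49.6 and 51.0 in those with lower *RUNX1T1*, a gap of only 1.01-fold. The CD34-silent libraries had 69.2, 64.4 and 59.0 with higher and 52.0, 56.8 and 61.2 with lower *RUNX1T1*, which overlap. The exons of *HDAC3* share 9.24% of their bases with a gene on the opposite strand.

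*HDAC1* (ENSG00000116478.12, chromosome 1 from 32292083 to 32333635, plus strand) and *HDAC2* (ENSG00000196591.12, chromosome 6 from 113933028 to 114011308, minus strand) encode the deacetylases shared by the SIN3, NuRD and CoREST complexes. *HDAC1* had 209, 202 and 219.7 normalized CPM in the CD34-expressing libraries with higher *RUNX1T1* and 161, 133 and 138 in those with lower *RUNX1T1*, with a gap of 1.25-fold. In the CD34-silent libraries its values were 183, 163 and 175 against 131, 150.1 and 177, where the 1 labelled SKNO-1 siRE-mod replicate 3 lay within the range of the others. *HDAC2* had 374, 389 and 437 normalized CPM against 324, 286 and 275 in the CD34-expressing libraries, with a gap of 1.15-fold. In the CD34-silent libraries it had 285, 249 and 263 against 195, 219.5 and 249.7, an overlap of less than 1 CPM that was lost, with lower values throughout, when CPM of the library total or DESeq2's size factors were used. Whether the sets of *HDAC1*, *HDAC2* and *HDAC3* differ between both sides of the *CD34* division was not tested.

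Per kb, *HDAC1* was the highest of these 3 genes in all libraries. In normalized CPM not divided by length, *HDAC2* was above *HDAC1* in all libraries, at 195 to 437 against 131 to 219.7. The order thus depends on the exonic lengths, 3966 bases for *HDAC1* and 15333 for *HDAC2*. Of the summed level per kb of the 3 genes, *HDAC1* made up 52.8% to 56.0% in the CD34-expressing and 57.7% to 60.1% in the CD34-silent libraries. *HDAC2* made up 26.0% to 29.6% and 22.0% to 23.3%, and *HDAC3* 16.8% to 19.7% and 17.3% to 19.7%. The shares of *HDAC1* and *HDAC2* thus did not overlap between the sets made by *CD34*, whereas the level of neither gene separated them. No background over other genes was computed for these shares.

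*SIN3A* (ENSG00000169375.15, chromosome 15 from 75369379 to 75455842, minus strand) encodes the scaffold of the SIN3 complex, the other platform that ETO uses to reach HDAC1 and HDAC2. The CD34-expressing libraries had 150.5, 159.9 and 155 normalized CPM with higher and 155, 139.8 and 136 with lower *RUNX1T1*. The CD34-silent libraries had 155, 166 and 167 with higher and 145, 145 and 189.7 with lower *RUNX1T1*. These values overlap in each reading, and the range over all 12 libraries was 1.39-fold.

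Counted together, 5 of the 8 members other than *RUNX1T1* did not overlap between the CD34-expressing libraries with lower and with higher *RUNX1T1*. *CBFA2T3* was higher and *TBL1XR1*, *HDAC1*, *HDAC2* and *HDAC3* were lower with lower *RUNX1T1*, against 18.1% and 20.1% of all genes. In the CD34-silent libraries 2 of the 8 did not overlap, *CBFA2T3* being higher and *TBL1XR1* lower, against 21.7% and 21.6% of all genes. The counts in the CD34-silent libraries, 1 higher and 1 lower, are not above the background and thus not particular to these genes. In the CD34-expressing libraries the 4 of 8 that were lower are a larger share than 20.1%, and 1 of the 4, *HDAC3*, had a gap of only 1.01-fold. Whether that share exceeds the background was not tested. Cell type markers separated by *RUNX1T1* as well. Of the 6 named above, 2 were higher and 3 lower without overlap in the CD34-expressing libraries with lower *RUNX1T1*. In the CD34-silent ones 3 were higher and 3 lower. In the CD34-expressing libraries *CD34* was at 117 to 153 normalized CPM with lower and at 417 to 421 with higher *RUNX1T1*, *KIT* at 682 to 787 and 945 to 999, and *CD33* at 71.3 to 76.4 and 38.1 to 39.4. In the CD34-silent libraries *KIT* was at 97.0 to 126 with lower and at 465 to 516 with higher *RUNX1T1*, *MPO* at 1783 to 2056 and 3633 to 5750, *PTPRC* at 185 to 261 and 355 to 441, and *CD33* at 62.0 to 71.7 and 45.1 to 52.3. *IL5RA* was at 53.5 to 68.0 with lower and at 36.3 to 47.5 with higher *RUNX1T1* in these CD34-silent libraries. *CD34*, though low there, was at 0.444 to 0.627 and 0.108 to 0.141, the opposite direction to the CD34-expressing libraries. The part of these markers in the results for the members was not tested. In the CD34-expressing set with lower *RUNX1T1*, replicate 2 of Kasumi-1 labelled siMM-mod had higher *CBFA2T3*, *HDAC1*, *HDAC2* and *HDAC3* than the others of its set, which were close to each other. In the CD34-silent set with lower *RUNX1T1* replicate 3 of SKNO-1 labelled siRE-mod had the highest *SIN3A*, *HDAC1*, *HDAC2*, *HDAC3*, *NCOR1* and *TBL1XR1* of its set.

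**Figure D3:**
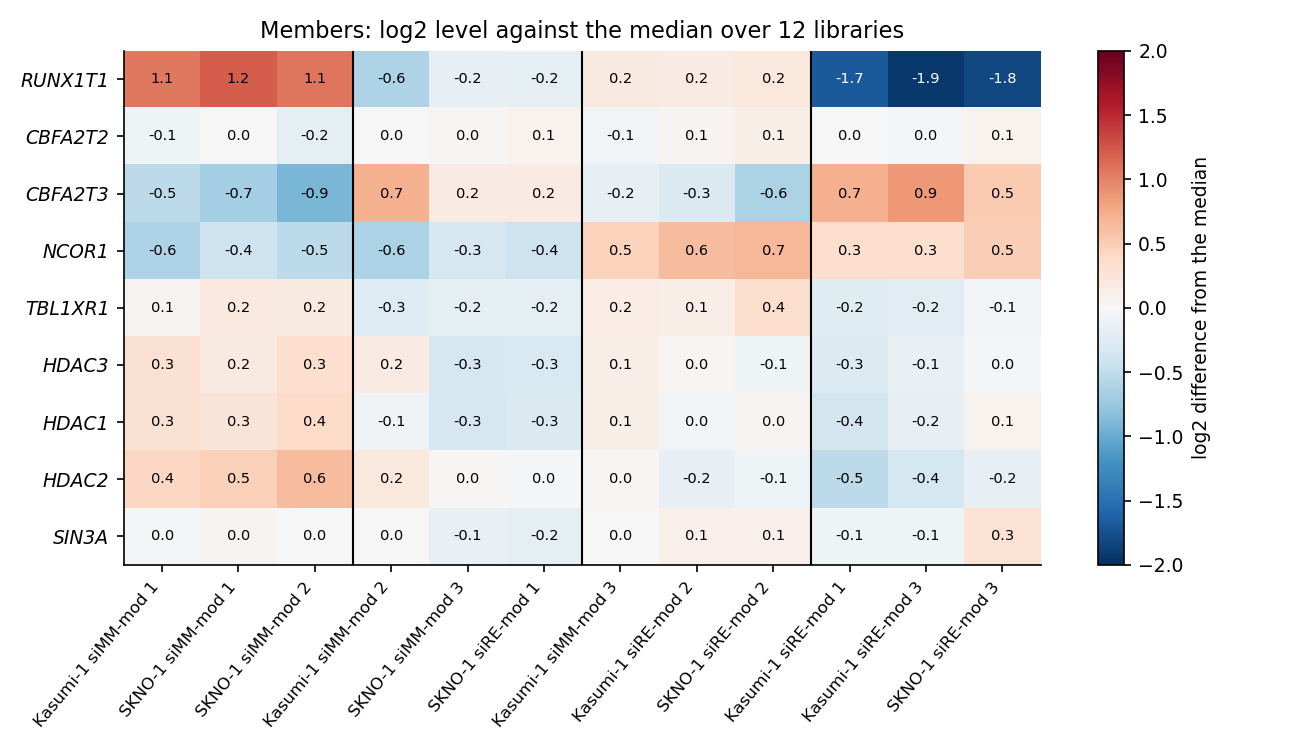
Log2 level of each member in each library relative to its median over the 12 libraries (colour and number), with black lines between the 4 sets. *CBFA2T3* is above its median in the second and the last set, where *RUNX1T1* is below its median, and *NCOR1* is above its median in the 6 CD34-silent libraries on the right.

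Per kb of exonic length, the order of the medians over the 12 libraries was *TBL1XR1* at 44.8, *HDAC1* at 42.6, *HDAC2* at 18.3, *HDAC3* at 13.6, *SIN3A* at 12.4, *RUNX1T1* at 10.6, *NCOR1* at 7.34, *CBFA2T3* at 4.45 and *CBFA2T2* at 2.43. The order depends on the annotated exonic lengths, and without division by length *HDAC2* was above *HDAC1*. Neighbours in this order did not all differ beyond their spread. Per kb, *HDAC1* was above *HDAC2*, *HDAC2* above *HDAC3* and *CBFA2T3* above *CBFA2T2* in all 12 libraries. *TBL1XR1* was above *HDAC1*, and *HDAC3* above *SIN3A*, in 8 of the 12. *RUNX1T1* was below *SIN3A* and above *NCOR1* in 9 of the 12 libraries, and *NCOR1* was above *CBFA2T3* in 11.

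The comparison that the design implies is siRE-mod against siMM-mod in each cell line, which asks how loss of the fusion affects these genes. By their labels, no member passed the threshold in either line. By edgeR (quasi-likelihood test, p-values adjusted after Benjamini and Hochberg) 0 of 13608 genes tested were called in Kasumi-1 and 0 of 13628 in SKNO-1, which is 0.0% of all genes in both cell lines. An unadjusted p under 0.05 was found for 2435 and 1455 genes, respectively. Leaving out Kasumi-1 siMM-mod replicate 3 or SKNO-1 siRE-mod replicate 1 gave 4250 and 2535 calls, and DESeq2 gave 1163 and 372. *RUNX1T1*, which checks the labels, had a log2 fold change of −1.19 (SE 0.71, adjusted p = 0.392, edgeR) in Kasumi-1 and −1.19 (SE 0.57, adjusted p = 0.491, edgeR) in SKNO-1. It was −2.16 without Kasumi-1 siRE-mod replicate 2, −0.65 without Kasumi-1 siMM-mod replicate 1 and −0.76 without SKNO-1 siRE-mod replicate 3. *HDAC2* was at 328 ± 44.4 normalized CPM (SD, n = 3) in siMM-mod and 221 ± 27.1 (SD, n = 3) in siRE-mod libraries of Kasumi-1, without overlap. Its log2 fold change was −0.56 (SE 0.17, adjusted p = 0.252, edgeR). In SKNO-1 the values of *HDAC2* were 370.4 ± 77.3 (SD, n = 3) and 263 ± 12.8 (SD, n = 3), also without overlap, with a log2 fold change of −0.49 (SE 0.20, adjusted p = 0.466, edgeR). For *NCOR1* the log2 fold change was 0.63 (SE 0.32, adjusted p = 0.342, edgeR) in Kasumi-1 cells and 0.74 (SE 0.28, adjusted p = 0.466, edgeR) in SKNO-1 cells.

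The other members had smaller log2 fold changes between the labels. *CBFA2T3* was at 0.41 and 0.48 in Kasumi-1 and SKNO-1, with standard errors of 0.43 and 0.40. Single libraries moved these values by more than 1.5 times, to 0.18 without Kasumi-1 siMM-mod replicate 1 and 0.87 without its replicate 2, and to 0.24 without SKNO-1 siRE-mod replicate 3 and 0.89 without SKNO-1 siMM-mod replicate 3. *HDAC1* and *HDAC3* were at −0.31 and −0.32 in Kasumi-1 and at −0.18 and −0.23 in SKNO-1. Without SKNO-1 siMM-mod replicate 2 the values in SKNO-1 were −0.0520 and −0.0938, and without its replicate 3 they were −0.36 and −0.39. *CBFA2T2*, *SIN3A* and *TBL1XR1* lay between −0.09 and 0.14 in both lines. At an unadjusted p under 0.05 were 1 of the 9 members in Kasumi-1 (*HDAC2*) and 2 in SKNO-1 (*NCOR1* and *HDAC2*), against 17.9% and 10.7% of all genes tested. Of the 8 members other than *RUNX1T1*, *HDAC2* and *HDAC3* were lower without overlap between the labels in Kasumi-1, against 11.1% of all genes, and 0 were higher, against 10.5%. With CPM of the library total, which shifts the median of all genes by 0.37 on the log2 scale in this comparison, 0 were lower and 3 higher, and with DESeq2's size factors 3 were lower and 0 higher. In SKNO-1, *CBFA2T2* was higher and *HDAC2* lower without overlap, against 5.93% and 6.01%.

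Single libraries and the tool decided the calls of *HDAC2* and *NCOR1*. Without replicate 3 of Kasumi-1 labelled siMM-mod, which is CD34-silent, *NCOR1* rose by 1.07 on the log2 scale (SE 0.14, adjusted p = 0.00348, edgeR) and *HDAC2* fell by 0.66 (SE 0.16, adjusted p = 0.0239, edgeR). In that fit 16.5% of all genes were called higher and 15.7% lower. Without replicate 1 of SKNO-1 labelled siRE-mod, which is CD34-expressing, *NCOR1* rose by 0.99 (SE 0.17, adjusted p = 0.0106, edgeR), while 10.8% of all genes were called higher and 8.55% lower. Both fits compare CD34-silent libraries under siRE-mod with CD34-expressing libraries under siMM-mod, so the division by *CD34* and the siRNA label cannot be told apart in them. DESeq2 called *HDAC2* lower in Kasumi-1 (log2 fold change −0.58, SE 0.19, adjusted p = 0.0332) and no other member, with 8.55% of all genes called, and none of the 9 in SKNO-1, where it called 2.73%.

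**Figure D4:**
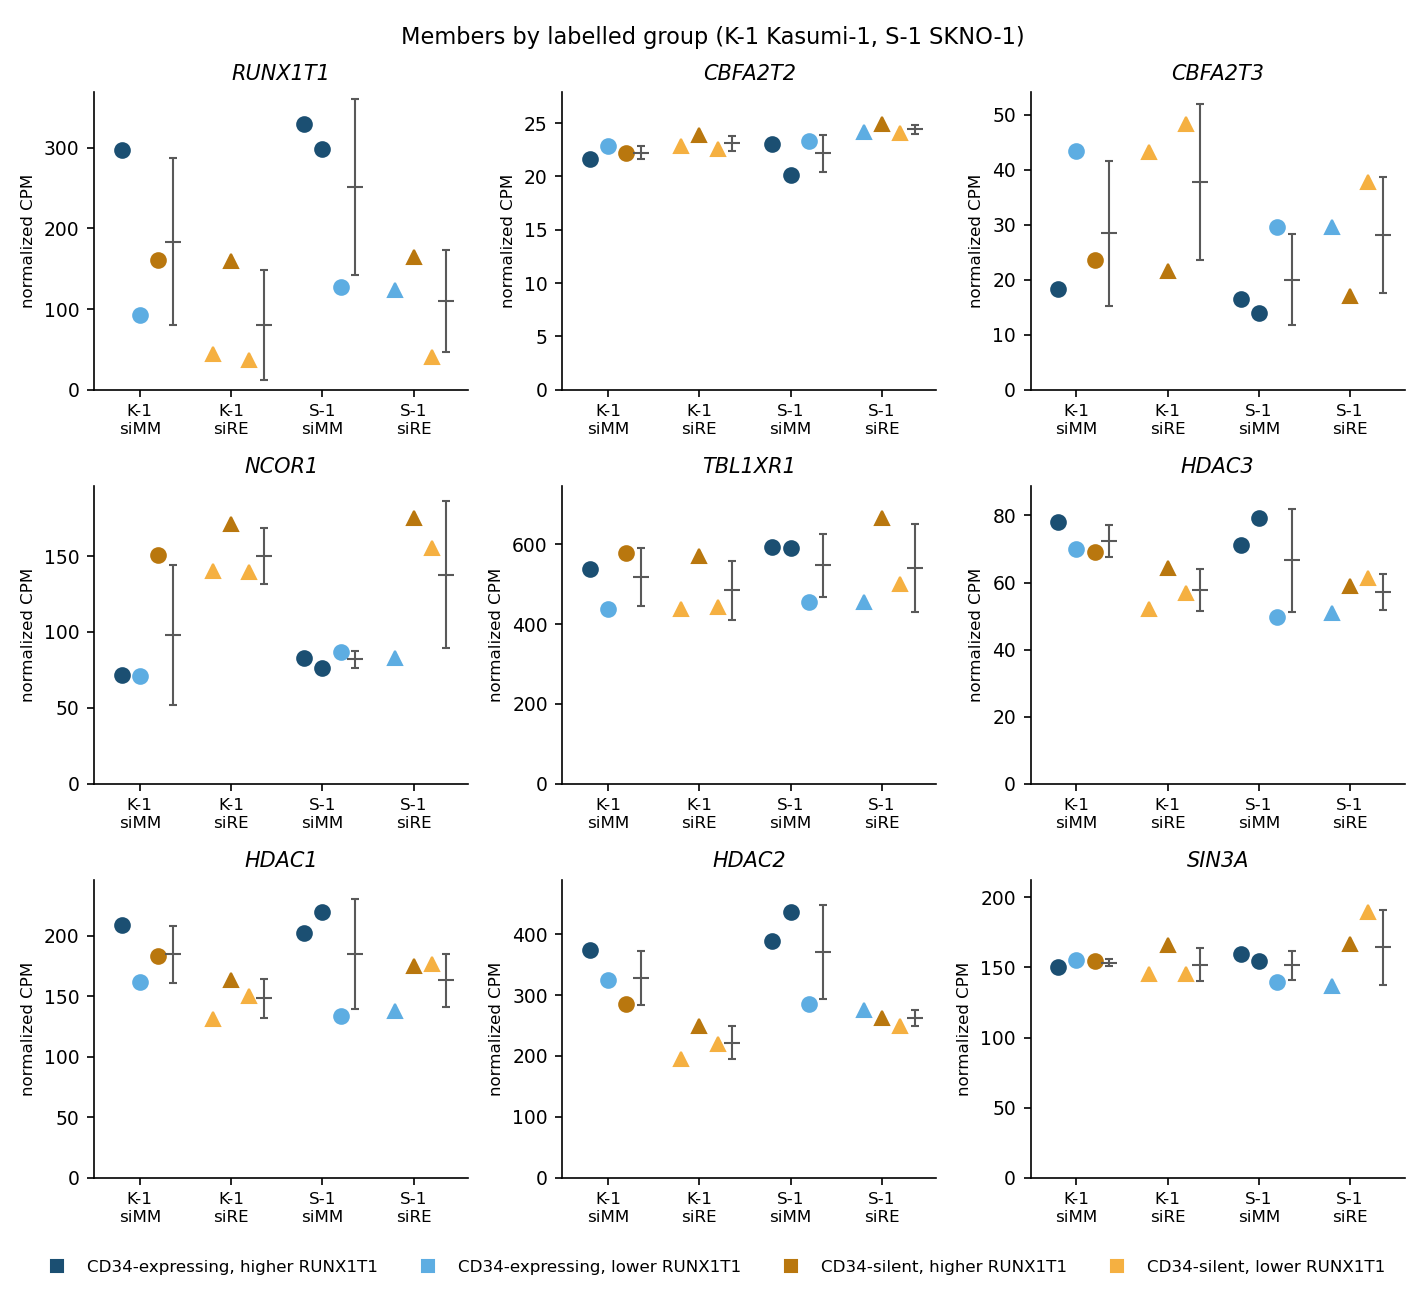
Normalized CPM of the 9 members in each library by labelled group, with the 4 sets as colours and the mean ± SD of each group (n = 3) as bars. *RUNX1T1* overlaps between the labels in both lines, and *HDAC2* is lower in each library labelled siRE-mod than in each labelled siMM-mod of the same line.

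**Figure D5:**
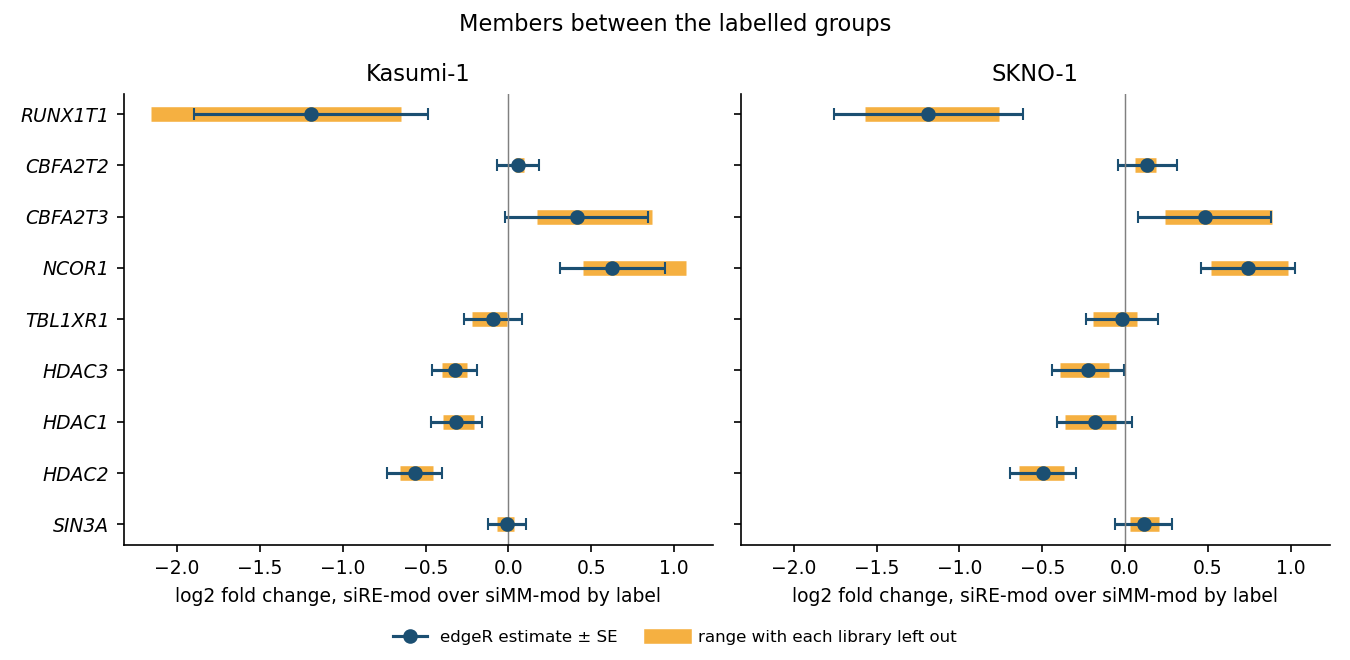
Log2 fold change of each member between the labels (siRE-mod over siMM-mod) with its standard error from edgeR, and as a bar the range over fits that each leave out 1 library. The bar of *RUNX1T1* in Kasumi-1 runs from −2.16 to −0.65 and that of *NCOR1* from 0.45 to 1.07.

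The effect of the label was compared between the cell lines by the interaction over all 12 libraries. By edgeR it was called for 0 of 15863 genes, which is 0.0% (106 at an unadjusted p under 0.05 and 127 calls by DESeq2), and the differences of the log2 fold change between the lines were between −0.01 and 0.13 for the 9 members (adjusted p = 0.99997 for each, edgeR). Their standard errors were 0.17 to 0.97. The smallest, that of *CBFA2T2*, belongs to a difference of 0.08. The largest, that of *RUNX1T1*, leaves differences of about the size of its fold change within the error. Each set made by *CD34* and *RUNX1T1* holds libraries labelled as both cell lines, so this comparison cannot show whether the lines respond alike. Whether the labels of cell line and siRNA match the libraries was not tested.

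Of the other genes of these pathways, 53 in 6 lists were tested, and none passed the threshold between the labels in either line (edgeR, 0.0% of all genes). At an unadjusted p under 0.05 were 6 of them in Kasumi-1 and 4 in SKNO-1, against 17.9% and 10.7% of all genes tested. DESeq2 called *HDAC9*, *GFI1B* and *ZBTB16* in Kasumi-1, where it called 8.55% of all genes. Without Kasumi-1 siMM-mod replicate 3, edgeR called 12 of the 53 (*TBL1X*, *ING1*, *SAP18*, *MBD2*, *MBD3*, *MTA3*, *RCOR2*, *HDAC4*, *HDAC9*, *LDB1*, *TCF12* and *TCF3*). In that fit 16.5% of all genes were called higher and 15.7% lower. Without SKNO-1 siRE-mod replicate 1 it called 5 (*SAP18*, *MTA3*, *RCOR2*, *HDAC9* and *TCF12*), with 10.8% of all genes called higher and 8.55% lower. Such calls were thus common among all genes and not particular to these lists. By the reading of libraries, 6 of the 53 were higher and 7 lower without overlap in the CD34-silent libraries, against 17.5% and 15.6% of all genes. With lower *RUNX1T1*, 13 were higher and 16 lower in the CD34-expressing libraries, against 18.1% and 20.1% of all genes. In the CD34-silent libraries 14 were higher and 14 lower, against 21.7% and 21.6%. Whether the shares of the 53 differ from these backgrounds was not tested.

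Of the other subunits of the NCoR complex, *CORO2A* and *TBL1X* are described. *CORO2A*, an actin-binding WD40 protein found with NCoR, was at 15.5 to 18.2 normalized CPM in the CD34-expressing libraries with lower *RUNX1T1* and at 1.45 to 1.58 in those with higher *RUNX1T1*. In the CD34-silent libraries it was at 3.41 to 4.33 and 1.03 to 1.61, respectively. *TBL1X*, the paralog of *TBL1XR1*, was at 29.6 to 35.9 with lower and at 48.8 to 52.6 with higher *RUNX1T1* in the CD34-expressing libraries, so that both paralogs were lower there. In the CD34-silent libraries, where *TBL1XR1* separated, *TBL1X* overlapped at 23.4 to 33.2 with lower and 25.5 to 30.7 with higher *RUNX1T1*. *TBL1XR1* exceeded *TBL1X* per kb by 8.61-fold to 17.4-fold over all libraries.

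Of the SIN3 complex, 15 of 15 other subunits were tested, with median log2 fold changes by label of −0.11 (Kasumi-1) and −0.08 (SKNO-1), against 0.02 and 0.03 for all genes. *SAP18*, a small subunit of the complex, was at 141 to 223 normalized CPM in the CD34-silent libraries against 58.4 to 95.0 in the CD34-expressing ones. *BRMS1* was at 36.0 to 40.1 in the CD34-silent libraries with lower *RUNX1T1* against 14.5 to 22.1 in those with higher *RUNX1T1*, and overlapped in the CD34-expressing libraries at 19.7 to 31.3 with lower and 24.1 to 27.5 with higher *RUNX1T1*. *SAP30L* was higher with lower *RUNX1T1* on both sides, at 23.5 to 26.4 against 21.1 to 22.1 in the CD34-expressing and at 18.8 to 23.4 against 11.7 to 15.1 in the CD34-silent libraries.

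In the NuRD and CoREST complexes, all 13 genes were tested, with median log2 fold changes of 0.02 and −0.03. *MTA3*, a NuRD subunit, was at 24.6 to 26.4 normalized CPM in the CD34-silent libraries and at 8.76 to 12.0 in the CD34-expressing ones. *RCOR2*, a CoREST scaffold, was at 5.51 to 10.2 in the CD34-silent libraries and 1.68 to 3.44 in the others. *MBD3*, the NuRD subunit that resembles a methyl-CpG binding protein, overlapped in each reading with a range of 11.3 to 41.4. Its exons share 11.6% of their bases with other genes, 9.70% on the same strand. Of the other histone deacetylases, 7 of 8 were tested, with median log2 fold changes of 0.15 and 0.10. *HDAC9*, a class IIa enzyme, was highest in the CD34-expressing libraries with higher *RUNX1T1* at 13.2 to 14.5 normalized CPM and lowest in the CD34-silent libraries with lower *RUNX1T1* at 0.294 to 0.408. *HDAC7* ranged from 22.3 to 65.1 over the 12 libraries and *HDAC8* from 9.68 to 26.2. The exons of *HDAC7* share 11.2% of their bases with genes on the opposite strand.

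Of the proteins that form the RUNX1/ETO complex, 8 of 9 were tested, with median log2 fold changes by label of −0.40 (Kasumi-1) and −0.26 (SKNO-1). *TAL1*, the haematopoietic partner of *CBFA2T3*, was lower with lower *RUNX1T1* on both sides, at 0.737 to 1.34 against 4.45 to 4.90 normalized CPM in the CD34-expressing and at 2.72 to 3.02 against 9.03 to 11.5 in the CD34-silent libraries. The direction of *TAL1* was thus opposite to that of *CBFA2T3* in both. The exons of *TAL1* share 14.8% of their bases with a gene on the opposite strand, and its lowest count was 47. *TCF3*, an E protein that binds ETO, was at 85.1 to 155 in the CD34-expressing and at 48.5 to 84.7 in the CD34-silent libraries. The nearest values, 85.1 and 84.7, almost met, so this separation is narrow. *LYL1*, a relative of *TAL1*, overlapped in the reading by *CD34* and ranged from 43.8 to 136.

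Among 7 other factors that bind ETO proteins, all tested, the median log2 fold changes were −0.15 and −0.16. *ZBTB16* (*PLZF*), a zinc finger repressor, was higher with lower *RUNX1T1* on both sides, at 26.4 to 29.5 against 12.6 to 14.5 normalized CPM and at 65.1 to 78.7 against 27.7 to 32.7. *GFI1B*, a repressor of erythroid and megakaryocytic cells, was at 11.1 to 12.3 in the CD34-silent libraries with lower *RUNX1T1* and at most 0.753 in each of the other libraries. *BCL6* was low throughout, at 0.720 to 1.94.

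The genes whose pattern over the 12 libraries was most like that of each family member were found by the SD of the difference of log2 normalized CPM, which is 0 for a constant ratio. For *RUNX1T1*, whose own SD is 1.11, these were *MYRF* with an SD of 0.22, *PAPSS2* with 0.26 and *SV2A* with 0.27 among 5353 candidates. For *CBFA2T3*, with an SD of 0.61, they were *BAHCC1* at 0.14, *SASH3* at 0.16 and *SH3BP2* at 0.20 among 10147. For *CBFA2T2*, with an SD of only 0.08, they were *TRIM44* at 0.04, *NSD3* at 0.05 and *PIAS1* at 0.06 among 13958. The libraries share their division by *CD34* and *RUNX1T1*, so the likeness is a description of these 12 libraries.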

How the data were processed

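Total RNA of 12 in vitro libraries, 3 per siRNA label and cell line, was sequenced. According to the submitters' processing notes, the authors trimmed reads with Trim Galore 0.6.5, aligned them to GRCh38 with STAR 2.7.10a and counted exons with Subread 1.6.5. A header of the deposited counts instead names Rsubread 1.32.4 under R 3.5.1. The strand setting is not given in the sources used here. The authors deposited counts per gene with 2 scaled forms, CPM (by library total) and FPKM (by library total and gene length). Counts were analysed here, deposited CPM served as an alternative scaling, and FPKM were not used.

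A gene was kept in a fit if its reads, summed over the libraries of that fit, reached 600. Normalized CPM used TMM factors. Labels were compared by edgeR 4.0.16 quasi-likelihood tests (R 4.3.3, Benjamini-Hochberg over all genes, threshold 0.05), with DESeq2 1.42.0, other scalings and filters, a replicate block and each library left out as alternatives. An exact permutation test of 3 against 3 libraries cannot go below a two-sided p of 0.1 and was not used. Libraries were also divided at the widest log2 gaps of *CD34* and then *RUNX1T1*, as a description. The fits of each cell line were tested on simulated data, in which all libraries shared a common mean profile apart from the changed genes. The simulated libraries had no division by *CD34*, so they do not show how the fits behave with it. No pair of libraries agreed within sampling noise (smallest chi-square per degree of freedom 26.0). Named genes of the other lists are the 3 with the widest log2 range per list among those with a mean of at least 1 CPM, genes past the threshold, and markers. The members and lists were chosen with earlier results of these data known. A result that involves an item withheld for evaluation is not reported here.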

Additional observations from a re-analysis of the deposited data

How the results depend on the processing

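Libraries with the same replicate number had correlations of their deviations from the labelled group mean between −0.272 and −0.0132. The labelled groups mix the sets made by *CD34* and *RUNX1T1*, so these correlations cannot show whether the replicate numbers pair the libraries. With the replicate block 0 genes were called in Kasumi-1, SKNO-1 and the interaction. Under the block the difference of the *RUNX1T1* fold change between the lines was 0.18, where it was −0.01 without it. Counts of genes called by DESeq2 were 1163 (Kasumi-1), 372 (SKNO-1) and 127 (interaction), with 3 of the pathway lists in Kasumi-1, where edgeR called 0. The cause was not tested. With CPM of the library total the median of all genes moved by up to 0.37 on the log2 scale, the median of *CBFA2T2* was 24.7 normalized CPM and 2 members did not overlap between the sets made by *CD34* (*NCOR1* higher, *HDAC2* lower). That alternative was chosen after seeing the data. With each library left out, edgeR called 0 to 4250 genes in Kasumi-1 and 0 to 2535 in SKNO-1, and 0 to 12 and 0 to 5 genes of the pathway lists. The high ends are the fits without Kasumi-1 siMM-mod replicate 3 and without SKNO-1 siRE-mod replicate 1. Log2 fold changes with a library left out ran from −0.0696 to 0.0375 for *SIN3A* in Kasumi-1 and from −0.19 to 0.0731 for *TBL1XR1* in SKNO-1. Differences between the lines ran from −0.54 to 0.97 for *RUNX1T1*, −0.36 to 0.47 for *CBFA2T3*, −0.36 to 0.38 for *NCOR1*, −0.0534 to 0.28 for *HDAC1*, −0.0842 to 0.20 for *HDAC2*, −0.0717 to 0.24 for *HDAC3* and −0.10 to 0.21 for *TBL1XR1*. Of 210 results under the other alternatives 202 kept their direction and side of the threshold, as did 217 of 252 with a library left out. Classed as reversed were 1 and 28 of them, respectively. Since 0 genes passed the threshold in the main edgeR fits, keeping its side was likely from the start and is no sign of stability.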
